A study of Canis lupus familiaris with 124 samples.

Results

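The libraries described here are those of the 6 canine urinary tract cancer cell lines that were sequenced 3 times, and the comparison was between the library of the earliest passage of each line and the libraries of its later passages. They are 18 of the 31 RNA sequencing libraries of the series, 6 of the earliest passage (replicate 1) and 12 of later passages (replicates 2 and 3), or 72 of its 124 lanes. The series compared cultured cell lines with the tumors they came from, and the methods treat the 3 libraries of a line as technical triplicates of cells cultured beyond passage 60. The labels, however, give each library a passage number of its own, which permits the question of which genes shifted between passages of the same line.

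All lines were grown without treatment in Medium 199 with fetal calf serum and were harvested before full confluency. TCC1506 was derived from a transitional cell carcinoma (TCC) of the urinary bladder of a female Labrador Retriever aged 10 years, and was sequenced at passages 98, 106 and 107. TCC1509 came from a prostatic TCC of a neutered male Bolonka Zwetna aged 9 years (passages 77, 85 and 85). Adcarc1508 was derived from a prostate adenocarcinoma (PAC) of a neutered male dog of mixed breed aged 11 years (passages 97, 105 and 106). The remaining lines came from a single neutered male Dobermann aged 6 years. They are Adcarc1511.1 from the primary PAC (passages 88, 94 and 95), Metadcarc1511.2 from a lymph node metastasis (passages 68, 75 and 79) and Metadcarc1511.3 from another lymph node metastasis (passages 79, 86 and 87). The 6 lines thus stand for 4 dogs, each line is 1 culture, and the earliest passage of each is 1 library. In fits over all lines with line as covariate, p-values therefore measure the spread between libraries that remains after line is accounted for. They do not measure the spread between dogs. Both later libraries of a line enter these fits as separate libraries, although they come from 1 culture. Tests within single lines, or for a difference among the 6 lines, take their spread from the later libraries of each line only. There the lone earliest library is assumed to vary like the later ones, so variation of the earliest passage is not measured.

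Cells in culture are kept by repeated splitting, and the share of cells in division at harvest sets the level of transcripts made for S phase and mitosis, such as those for cyclins, mitotic kinases and the parts of the centrosome. The centrosome organizes the mitotic spindle in dividing cells, and its older centriole forms the base of the primary cilium in resting cells. Culture also changes what cells secrete and how they attach, through matrix enzymes, laminins, integrins and cytokine receptors.

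Libraries held between 15355777 and 19935252 counts, with the earliest libraries at both ends of this range and the later ones between 15921875 and 19231681. No pair of libraries of a line was identical, and the variation between them was 25.7 to 174.8 times that of counting alone. Of the 7 epithelial markers examined, 6 had at least 10 counts in every library of either passage group, and their summed level was between 780 and 5860 CPM (counts relative to each library's TMM-adjusted total) in the earliest and between 585 and 5660 CPM in the later libraries. In contrast, the summed level of 16 leukocyte markers was at most 18.5 CPM in any library, and TYROBP, C1QB and LY86 were at 0 in all 18. The 12 fibroblast markers summed to 66.1 to 1532 CPM in the earliest and 85.0 to 1785 CPM in the later libraries. The 7 endothelial markers summed to 6.29 to 70.6 CPM and 5.56 to 113 CPM, respectively. In these bulk libraries, a change in the share of cells that express a gene cannot be told apart from a change of its level per cell.

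Principal component analysis (PCA) of log2 CPM, with each line centred on its own mean, separated the passages. PC1 explained 40.7% of this variance, and all 6 earliest libraries had negative scores while all 12 later libraries had positive scores. PC2 explained 17.04% and was led by Adcarc1511.1, of which replicate 3 had a score of -45.8.

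**Figure D1:**
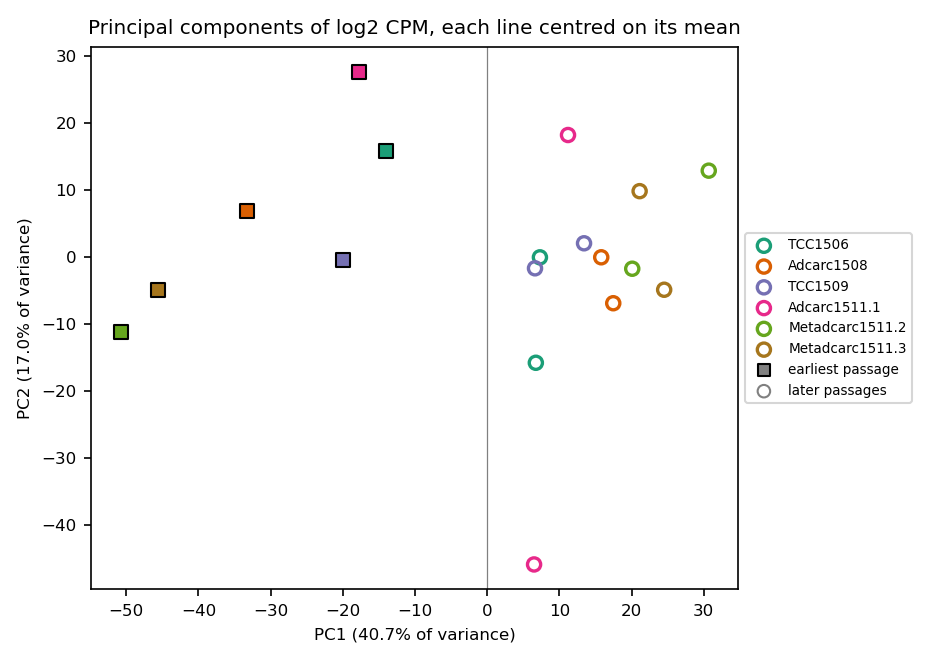
Scores of the 18 libraries on PC1 (40.7% of variance) and PC2 (17.04%) of log2 CPM after each line was centred on its mean, with filled squares for the earliest passage and open circles for later passages, coloured by line. The earliest libraries lie to the left of 0 on PC1 and the later ones to the right, and replicate 3 of Adcarc1511.1 lies apart at -45.8 on PC2.

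In 5 of the 6 lines, the earliest library was farther from both later libraries than these were from each other, measured as Euclidean distance over log2 CPM. The difference was widest in Metadcarc1511.2 (39.6), Adcarc1508 (33.2) and Metadcarc1511.3 (30.8), smaller in TCC1506 (14.6) and TCC1509 (12.03), and reversed in Adcarc1511.1 (-7.87), whose replicate 3 stood apart. The mean difference was 20.4 ± 17.6 (SD, n = 6 lines), with a two-sided p of 0.0096 by an exact permutation test over which library of each line was called the earliest (smallest possible p 0.00137). Without both metastasis lines it was 12.98 and the exact permutation p was 0.111. The earliest libraries of Metadcarc1511.2 and Metadcarc1511.3 were nearer to each other (50.3) than to any library of their own line, whereas the other 16 libraries each had a library of the same line as nearest neighbour.

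With cell line as covariate, 2761 of 10828 tested genes (25.5%) differed between later and earliest libraries at an adjusted p of at most 0.05 (edgeR's quasi-likelihood test with Benjamini-Hochberg adjustment). Of these, 1313 were higher in later libraries (12.1% of tested genes) and 1448 were lower (13.4%). Most shifts were moderate, as 372 genes (3.44%) changed at least 2-fold and 21 at least 4-fold, and 19 of these 21 were lower in later libraries. The direction was the same in all 6 lines for 2513 of all tested genes (23.2%), of which 1905 were called. Tested genes had at least 10 counts in all earliest or in all later libraries, and 139 of the 2761 called genes met this only in the group where they were higher, a choice that favours a difference. Of all tested genes, 401 met it only in the earliest and 118 only in the later libraries. The minimum is met more easily in 6 earliest than in 12 later libraries, which favours decreases among the largest shifts. Groups that did not overlap at all, over 6 and 12 libraries of different lines, were found for 37 genes (0.342%). As a comparison between libraries of similar passage, replicate 3 against replicate 2 gave 0 genes by edgeR, with 1247 at an unadjusted p under 0.05, and 120 genes by DESeq2. Because the earliest passage is replicate 1 in every line, passage number and whatever else was shared by the first harvests or their preparation cannot be told apart. Without both metastasis lines 962 genes were called, without Adcarc1508 it was 1589, without Metadcarc1511.2 it was 1496 and without only the earliest library of Metadcarc1511.2 it was 1729. By their sample numbers, replicates 1 and 2 of TCC1506 appear to belong to another sequencing series than the other 16 libraries, and without this line 2607 genes were called.

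Only 217 of the called genes had a symbol, so larger shifts of genes without a symbol are not named. The genes named first are from the 152 of these 217 with the same direction in all 6 lines. Members of gene lists named further below need not have the same direction in all lines. Within these 152, OLR1 and IL20RB had the lowest log2 fold changes. Both met the count minimum in the earliest libraries only, as did DOCK8, HVCN1, PLEKHA4, PYROXD2 and MKS1, and OGN, GMPR and HHEX met it in the later libraries only. The values of these 10 genes are therefore given as a description, without a test. OLR1 encodes the receptor for oxidized low density lipoprotein, a scavenger receptor of endothelial and other cells. Its level was between 6.49 and 284 CPM (median 51.2) in the earliest libraries and between 0.225 and 12.6 CPM (median 0.371) in the later ones. Within each line, both later libraries lay below the earliest one, although the groups overlapped across lines. In Adcarc1508, for instance, it was 74.8 CPM at passage 97, followed by 0.323 and 0.42 CPM. The difference was smallest in TCC1506, from 27.5 CPM to 12.6 and 8.11 CPM. The log2 fold change over all lines was -5.67.

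IL20RB, a subunit of the receptors for the cytokines of the IL-20 family, showed the same order within lines. It was between 1.27 and 90.8 CPM (median 37.1) in the earliest and between 0.0578 and 32.3 CPM (median 0.435) in the later libraries. Metadcarc1511.2 had 77.3 CPM at passage 68, then 2.36 and 0.0578 CPM at passages 75 and 79. TCC1506 again kept the highest later levels, at 32.3 and 31.2 CPM. The log2 fold change was -4.69.

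LOXL4, a lysyl oxidase-like enzyme that cross-links collagen and elastin, separated the groups completely. All earliest libraries were between 36.6 and 86.9 CPM (median 63.1) and all later ones between 4.87 and 35.5 CPM (median 12.97). Its log2 fold change was -2.16 ± 0.24 (SE; adjusted p 9.38e-05), and both later libraries were lower in each line. DDX17, an RNA helicase that acts in splicing and transcription, did not overlap between the groups either. It was between 569 and 805 CPM (median 685) in the earliest and between 208 and 424 CPM (median 245) in the later libraries, a log2 fold change of -1.31 ± 0.16 (SE; adjusted p 0.000137).

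**Figure D2:**
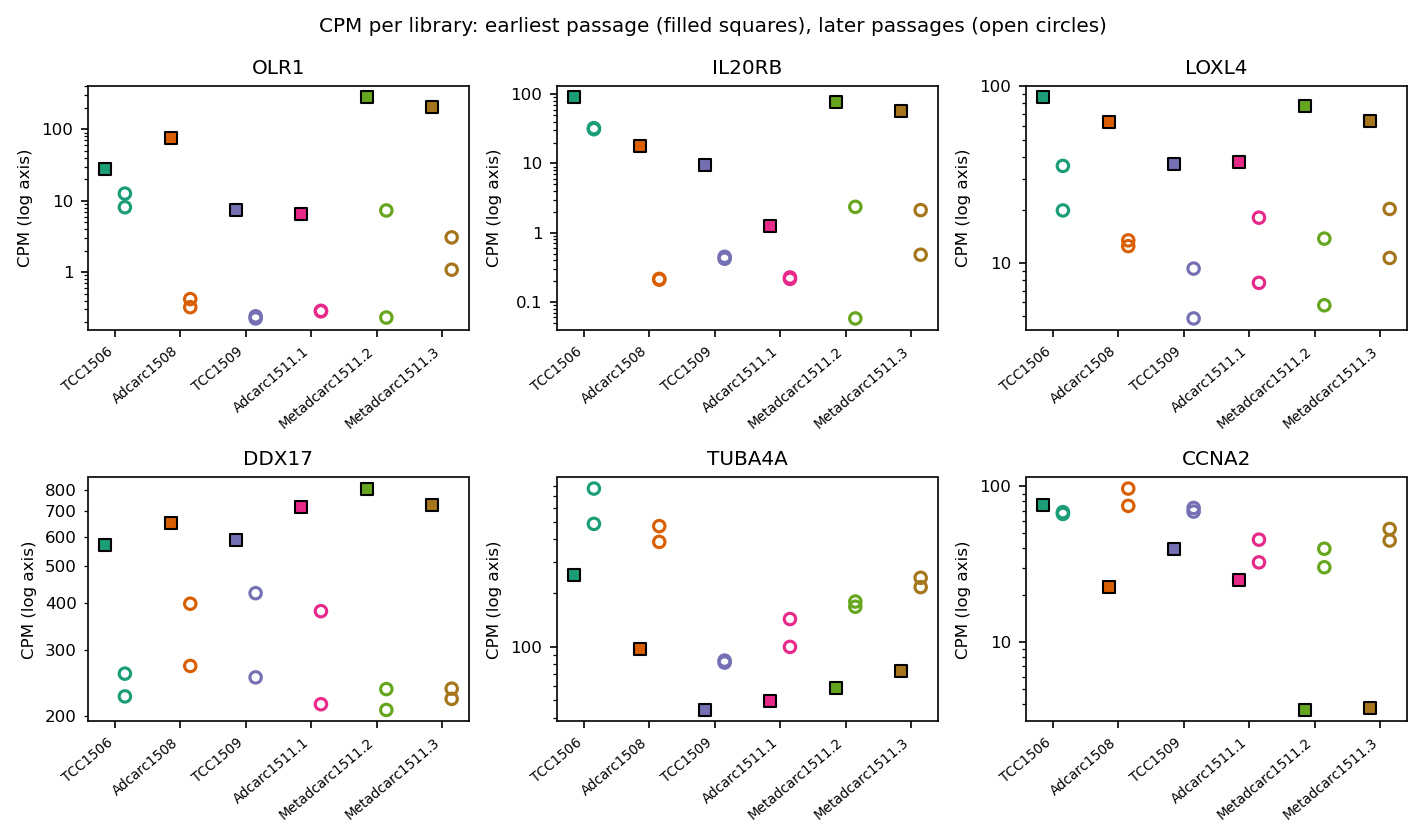
CPM (log axis) of 6 genes in each of the 18 libraries, by line, with filled squares for the earliest passage and open circles for the 2 later libraries of the line. OLR1, IL20RB, LOXL4 and DDX17 are lower in both later libraries of every line and TUBA4A is higher, while the level of CCNA2 in TCC1506 was 76.3 CPM at the earliest passage and lower, at 68.3 and 66.5 CPM, thereafter.

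Further negative log2 fold changes with a uniform direction in all 6 lines were those of DOCK8, an exchange factor for the GTPase Cdc42 known mainly from leukocytes (-2.09). It was between 1.43 and 17.3 CPM in the earliest and between 0.18 and 8.69 CPM in the later libraries. DOCK8 was the only one of the 16 leukocyte markers to meet the count minimum. The summed leukocyte level, which includes DOCK8, was 8.95 to 18.5 CPM in the earliest and 3.74 to 13.7 CPM in the later libraries. The mean of DOCK8 alone was 9.21 CPM in the earliest and 2.81 CPM in the later libraries. Next to it were PARD3B, a polarity protein of tight junctions (-1.52), SYTL2, which acts in vesicle transport (-1.48), and HVCN1, a voltage-gated proton channel (-1.41). PLEKHA4 (-1.38), PYROXD2 (-1.24), FBF1 (-1.23) and AHNAK (-1.16) followed. AHNAK, a very large scaffold protein, was between 2952 and 9394 CPM in the earliest and between 1145 and 5058 CPM in the later libraries. Among genes without a symbol, ENSCAFG00000013479 and ENSCAFG00000009906 had the smallest p-values of a decrease, with log2 fold changes of -1.56 and -0.94.

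Among the genes with a symbol and one direction in all 6 lines, TUBA4A and TUBB4B had the highest values. They encode tubulins, the building blocks of microtubules. TUBA4A was between 44.1 and 253 CPM (median 65.6) in the earliest and between 81.4 and 772 CPM (median 198) in the later libraries. Both later libraries of every line exceeded the earliest one, and the log2 fold change was 1.47 ± 0.15 (SE; adjusted p 9.38e-05). TUBB4B rose by a log2 fold change of 1.45 ± 0.23 (SE; adjusted p 0.000713) and TUBB by 1.14 ± 0.25 (SE; adjusted p 0.00461). Tubulin genes are similar in sequence, so the division of reads among them by the upstream quantification is uncertain.

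VRK1, a kinase of mitotic chromatin, was between 15.5 and 37.4 CPM in the earliest and between 35.7 and 91.4 CPM in the later libraries (log2 fold change 1.27 ± 0.20 SE; adjusted p 0.000718). HAUS7, a subunit of the augmin complex that generates spindle microtubules, rose by 1.24 ± 0.22 (SE; adjusted p 0.0013). The next log2 fold changes among genes with a symbol and one direction in all 6 lines were those of OGN, a small proteoglycan of the matrix (1.20), MVD, an enzyme of the mevalonate pathway to sterols (0.98), GMPR (0.97), HHEX (0.84), ST6GALNAC4 (0.79), CYCS, which encodes cytochrome c (0.78), and SSNA1 (0.76). OGN was scarce, with between 0.0705 and 1.77 CPM in the earliest and between 0.622 and 3.25 CPM in the later libraries. It was 1 of 3 fibroblast markers that met the count minimum. Of the genes without a symbol, ENSCAFG00000003525 and ENSCAFG00000005623 had the smallest p-values of an increase, with log2 fold changes of 0.80 and 1.06, and neither overlapped between the groups.

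Gene lists were then examined as groups. They were chosen with earlier results of these data known, so their shares are a description and not a test. The first list was that of cell cycle and mitosis genes. Of 24 tested members, 8 (33.3%) rose, compared with 12.1% of all tested genes, and 3 (12.5%) fell, compared with 13.4%. The median log2 fold change of the list was 0.33, against -0.01 for all tested genes. The strongest increase was that of CCNA2, the cyclin of S phase and early mitosis (1.42 ± 0.38 SE; adjusted p 0.0133). NEK2 (1.12), CCNB1 (1.09) and AURKA (1.08) also rose, of which CCNB1 is the cyclin that drives entry into mitosis and AURKA and NEK2 are kinases of the centrosome. GMNN, an inhibitor of DNA replication licensing, rose by 0.62, CCND1 by 0.48 and TMPO by 0.37. PLK1, a kinase with roles throughout mitosis, had a log2 fold change of 0.97 that did not pass the test (adjusted p 0.0847). The number that rose was 4 without the earliest library of Adcarc1508, of Metadcarc1511.2 or of Metadcarc1511.3, and 2 without the whole line Adcarc1508.

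The members that fell act as brakes on the cell cycle or in the organization of the spindle. RBL2 and RB1, pocket proteins that hold back S phase genes, fell by 0.66 and 0.42 on the log2 scale, respectively, each in all 6 lines. NUMA1, which focuses the poles of the spindle, fell by 0.52. CDKN1A, which encodes the cell cycle inhibitor p21, had a log2 fold change of -0.42 (adjusted p 0.0923).

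For 2 of the 24 members, CCNA2 and NEK2, the shift differed among the lines by the test of that difference. That test takes its spread from the later libraries and assumes that the lone earliest library of each line varies like them. CCNA2 was at 3.67 CPM in the earliest library of Metadcarc1511.2 and at 30.2 and 39.8 CPM in its later ones. In Metadcarc1511.3 it was at 3.78 CPM, then at 44.9 and 53.3 CPM. These earliest libraries had the lowest CCNA2 levels of all 18, as all other libraries were at 22.5 CPM or above. Adcarc1508 (22.5 CPM, then 75.0 and 96.8 CPM) and TCC1509 (39.6 CPM, then 72.7 and 68.9 CPM) were also higher later. Adcarc1511.1 had 25.0 CPM, then 45.5 and 32.5 CPM, and only TCC1506 was lower at later passages. The test for a difference of the shift among the lines gave an adjusted p of 0.00451 for CCNA2 and the same value for NEK2, and it did not pass for AURKA (0.118), CCNB1 (0.239), PLK1 (0.345) and GMNN (0.509). Outside the list it passed for PLK4 (0.00293), SASS6 (0.00938) and HAUS5 (0.014) of the centrosome, and for the tubulins TUBB (0.038) and TUBB4B (0.0393). The median shift of the list was 0.68 in Metadcarc1511.2, 0.64 in Metadcarc1511.3, 0.58 in Adcarc1508, 0.40 in TCC1509, 0.03 in Adcarc1511.1 and -0.44 in TCC1506. With both metastasis lines left out, 1 member of the list rose and 3 fell, and the log2 fold change of CCNA2 was 0.74 (adjusted p 0.0849).

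**Figure D3:**
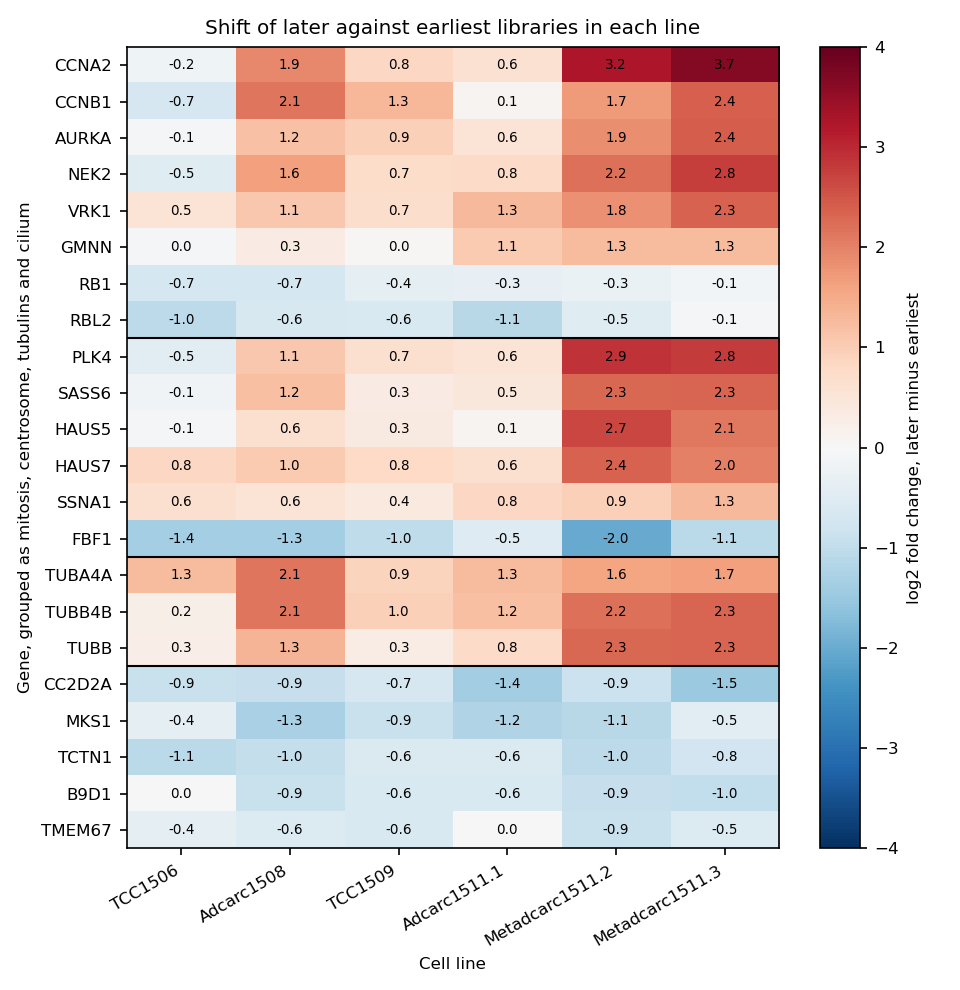
Log2 fold change of later against earliest libraries (colour and printed value) of 22 genes of mitosis, the centrosome, tubulins and the cilium in each of the 6 lines. CCNA2, NEK2, PLK4, SASS6 and HAUS5 have values between 2.11 and 3.68 in both metastasis lines and between -0.49 and -0.09 in TCC1506, whereas CC2D2A, MKS1 and TCTN1 of the cilium are negative in all 6 lines.

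Centrosome and gamma-tubulin genes followed the mitotic genes in direction. Of 42 tested members, 11 rose (26.2%, against 12.1% of all tested genes) and 1 fell (2.38%, against 13.4%). The median log2 fold change was 0.18. PLK4, the kinase that starts centriole duplication, rose by 1.06, and SASS6, which builds the cartwheel of the new centriole, by 0.95. HAUS5 and HAUS8 of the augmin complex rose by 0.81 and 0.65. CEP89 (0.69), CENPJ (0.68), CEP135 (0.57), TUBGCP4 (0.51) and CETN2 (0.37) were the others besides HAUS7 and SSNA1. PLK4 was at 5.57 and 5.87 CPM in the earliest libraries of the metastasis lines and between 41.0 and 42.1 CPM in their later ones. In TCC1506, it was at 50.2 CPM and then at 38.8 and 34.2 CPM. The single member that fell, FBF1, belongs to the distal appendages by which a centriole docks at the membrane to form a cilium. Without the metastasis lines, 3 members rose and 2 fell. The number that rose was 5 without the earliest library of Metadcarc1511.2 and 7 without that of Metadcarc1511.3 or Adcarc1508.

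In the primary cilium list, by contrast, 6 of 20 tested members fell (30%, against 13.4% of all tested genes) and 0 rose (against 12.1%). The median log2 fold change was -0.22. Among those that fell were CC2D2A (-1.03 ± 0.13 SE; adjusted p 0.000207), MKS1 (-0.86), TCTN1 (-0.81), B9D1 (-0.67) and TMEM67 (-0.48). These encode proteins of the transition zone, the gate at the base of the cilium. CC2D2A was between 8.04 and 33.9 CPM (median 22.1) in the earliest and between 2.73 and 19.6 CPM (median 10.4) in the later libraries, and both later libraries were lower in each line. The other 14 tested members did not pass. Of the 20, 19 met the count minimum in both groups. MKS1 met it in the earliest libraries only, yet is counted among the 6 that fell. Without both metastasis lines 3 members fell, which were CC2D2A, MKS1 and TCTN1.

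**Figure D4:**
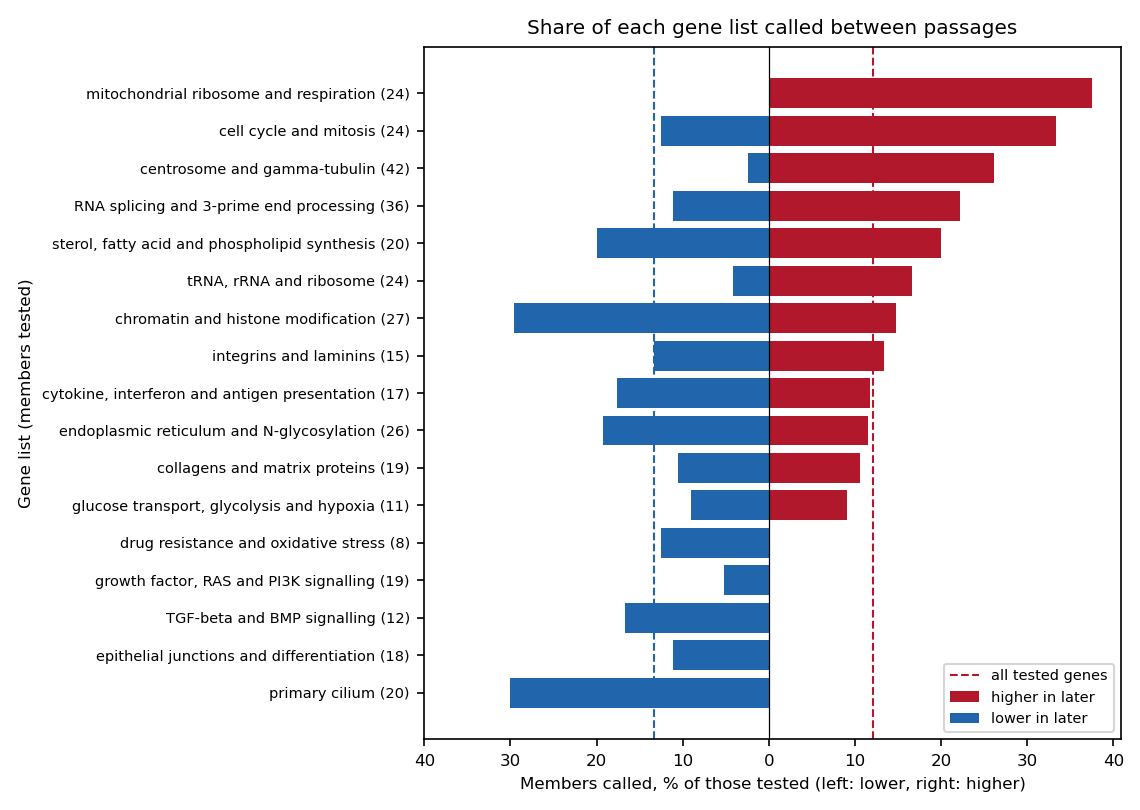
Share of the tested members of 17 gene lists that were called higher (red, to the right) or lower (blue, to the left) in later libraries, in percent, with the number tested in parentheses and dashed lines for all tested genes (12.1% higher and 13.4% lower). Mitochondrial, cell cycle and centrosome genes extend farthest to the right, and cilium and chromatin genes farthest to the left.

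In the list of mitochondrial ribosome and respiration genes, which holds only genes with a symbol, all called members were higher in later libraries. Of 24 tested, 9 rose (37.5%, against 12.1% of all tested genes) and 0 fell (against 13.4%). The median log2 fold change was 0.24, and 83.3% of the tested members had a value above 0, against 48.5% of all tested genes. The increases were small, with 0.78 for CYCS, 0.56 for NDUFB9 of respiratory complex I, 0.55 for PMPCA, which cleaves the targeting peptides of imported proteins, and 0.42 for MRPL16 of the mitochondrial ribosome. UQCRC1, PMPCB, MRPL2 and MRPL23 rose by 0.23 to 0.50. CYCS was between 77.1 and 221 CPM in the earliest and between 135 and 452 CPM in the later libraries, and both later libraries were higher in each line. In contrast to the mitotic list, the median shift of the mitochondrial list was largest in TCC1506 (0.43) and smallest in Metadcarc1511.2 (0.05). Without the metastasis lines, 5 members rose and 0 fell, and 5 rose without the earliest library of Adcarc1511.1. Without replicate 1 or replicate 2 of TCC1506, 6 rose and 1 fell.

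Genes of RNA metabolism shifted in both directions, beside 12.1% higher and 13.4% lower among all tested genes. Of 36 splicing and 3' end processing genes, 8 rose (22.2%) and 4 fell (11.1%), with THOC3 of the mRNA export complex as the largest increase (0.67) and DDX17, RBM4B (-0.46), RBM5 (-0.40) and RALY (-0.27) as the decreases. Of 24 genes of tRNA, rRNA and the ribosome, 4 rose (16.7%) and 1 fell (4.17%). WDR4, part of a tRNA methyltransferase, rose by 0.76, TSEN34 of the tRNA splicing endonuclease by 0.68, RPP30 of RNase P by 0.40 and NOP56 by 0.37. The pseudouridine synthase PUS10 fell by 0.73. Without the metastasis lines, 1 splicing gene rose and 2 fell, and of the tRNA and rRNA list 0 did either. Leaving out only the earliest library of Adcarc1508 gave 3 splicing genes that rose and 4 that fell, that of Adcarc1511.1 gave 5 and 5, and that of Metadcarc1511.2 gave 5 and 3. The tRNA and rRNA genes that rose were 2 when any single library of Adcarc1508, replicate 2 of TCC1506 or of Metadcarc1511.3, the earliest library of Adcarc1511.1, or replicate 1 or 2 of Metadcarc1511.2 was left out.

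Among 27 chromatin genes, 8 fell (29.6%, against 13.4% of all tested genes) and 4 rose (14.8%, against 12.1%). The median log2 fold change was -0.22. KDM6B and KDM6A, demethylases that remove the repressive mark at lysine 27 of histone H3, fell by 1.04 and 0.30 on the log2 scale, respectively. KDM6B was between 49.9 and 170 CPM in the earliest and between 21.2 and 103 CPM in the later libraries, with the highest later level in TCC1506, where the log2 shift was 0.12. BMI1 (-0.46), a subunit of Polycomb repressive complex 1, and JARID2 (-0.42), a cofactor of Polycomb repressive complex 2, also fell, as did SAP30L, RCOR3, KMT5A and WDR5. EED (0.51), RBBP7 (0.51) and RBBP4 (0.40), which are core members or histone chaperones of Polycomb repressive complex 2, rose, and so did KAT8 (0.33). Without the metastasis lines, 2 members of this list fell and 0 rose. Without only the earliest library of Metadcarc1511.2, 5 fell and 1 rose, and without that of Metadcarc1511.3, 5 fell and 2 rose.

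Shares of matrix and attachment genes were near those of all tested genes (12.1% higher and 13.4% lower). Of the 50 collagens and matrix proteins listed, only 19 had enough counts to be tested, of which 2 rose and 2 fell (10.5% each). In addition to LOXL4 and OGN, these were LTBP3 (-0.45), a binding protein of latent TGF-beta, and SDC1 (0.64), a heparan sulfate proteoglycan of epithelial cells. OGN is counted among the 2 that rose, although it met the count minimum in the later libraries only. Among 15 tested integrins and laminins, 2 fell and 2 rose (13.3% each). LAMB3, a chain of laminin-332 in the basement membrane of epithelia, fell by 1.3 on the log2 scale (SE 0.29; adjusted p 0.00467). Its level went from 3045 to 889 and 693 CPM in Metadcarc1511.2 and from 1899.6 to 492 and 323 CPM in Adcarc1508. In TCC1506, on the contrary, it was 585 CPM at first and 655 and 1106 CPM later. LAMB2 fell by 0.92, with the same direction in all 6 lines, whereas the laminin receptor subunit ITGA6 rose by 0.70 and the actin crosslinker ACTN1 by 0.74. ACTN1, itself neither an integrin nor a laminin, shifted by 1.88 in TCC1506, 1.70 in Metadcarc1511.2 and 1.13 in Metadcarc1511.3. Its shift was -0.006 in Adcarc1508, 0.005 in TCC1509 and 0.13 in Adcarc1511.1. Of 18 epithelial junction and differentiation genes, 2 fell (11.1%) and 0 rose. These were TRIM36 (-1.02), a ubiquitin ligase, and PCDH1 (-0.86), a protocadherin of cell contacts. The other 16 did not pass. With the metastasis lines left out, LOXL4 was the only called gene of the matrix list, LAMB2 of the laminin and integrin list, and both epithelial genes fell. Without the earliest library of TCC1506, 4 matrix genes fell and 2 rose, 3 integrins and laminins fell and 1 rose, and 4 epithelial genes fell. Leaving out the earliest library of Adcarc1511.1 gave 4 matrix genes that rose and 2 that fell.

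In the cytokine, interferon and antigen presentation list, 3 of 17 tested members fell (17.6%) and 2 rose (11.8%). These shares were near those of all tested genes (13.4% lower and 12.1% higher). IL20RB is counted among the 3 that fell, although it met the count minimum in the earliest libraries only. RIPK2, a kinase that signals from intracellular sensors of bacteria, fell by 1.01 on the log2 scale, and JAK1 by 0.29. RIPK2 was at 116 and 113 CPM in the earliest libraries of the metastasis lines and between 16.9 and 42.7 CPM in their later ones, and near its first level in TCC1506 (69.2, 77.0 and 60.9 CPM) and Adcarc1511.1 (28.3, 27.5 and 31.7 CPM). OSMR, the receptor subunit for oncostatin M, rose by 0.62 and the complement inhibitor CD59 by 0.59. Without the metastasis lines, 2 members of the list fell, IL20RB and JAK1, and 0 rose. Leaving out single libraries gave between 1 (without the earliest library of Metadcarc1511.2) and 4 (without replicate 3 of Adcarc1511.1) that fell. Of 12 TGF-beta and BMP genes, SMAD3 (-0.58) and LTBP3 fell (16.7%, against 13.4% of all tested genes). Without the metastasis lines, 0 members of that list were called. Of 19 tested genes of growth factor, RAS and PI3K signalling, 1 fell (5.26%, against 13.4% of all tested genes) and 0 rose (against 12.1%). VEGFA, a growth factor for blood vessels, had a log2 fold change of -0.73 (adjusted p 0.0601) but passed the test for a difference among the lines (adjusted p 0.0299), with levels of 867, 1413 and 2119 CPM in TCC1506 and of 540, 138 and 124 CPM in Adcarc1508.

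Of 26 genes of the endoplasmic reticulum (ER) and N-glycosylation, 5 fell (19.2%) and 3 rose (11.5%). Of all tested genes, 13.4% were lower and 12.1% higher. ERO1A, the oxidase that drives disulfide bond formation, fell by 1.04, and SEL1L, an adaptor of ER-associated degradation, by 0.84. TMX3, MGAT3 and ALG2 fell by 0.68, 0.44 and 0.43. ERO1A was at 2695 CPM in the earliest library of Metadcarc1511.2 and at 1126 and 442 CPM later, and at 1742 CPM and then 483 and 331 CPM in Metadcarc1511.3. SEL1L was between 98.1 and 442 CPM in the earliest and between 45.1 and 204 CPM in the later libraries, and was lower in both later libraries of each line. VCP, an ATPase that extracts proteins from the ER membrane, rose by 0.51, FUT8 by 0.61 and ALG12 by 0.31. Of this list, 3 fell and 1 rose without the metastasis lines, and the same numbers were obtained without only the earliest library of Metadcarc1511.3. Without replicate 3 of Adcarc1511.1, 6 fell and 5 rose, without the earliest library of TCC1506, 5 fell and 1 rose, without that of Metadcarc1511.2, 4 fell and 1 rose, and without that of Adcarc1508, 3 fell and 2 rose.

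Lipid genes were split evenly, with 4 increases and 4 decreases among 20 tested (20% each). Of all tested genes, 12.1% were higher and 13.4% lower. The increases were LIPG, an endothelial lipase (1.13), MVD, ACSL4, which activates polyunsaturated fatty acids (0.70), and SELENOI (0.54). SREBF1 and NR1H3, transcription factors of lipid and sterol synthesis, both fell by 0.71 on the log2 scale, and SLC44A1 and ORMDL3 by 0.51 and 0.33. In Adcarc1511.1, LIPG shifted by -0.71 and NR1H3 by 0.49, opposite to their direction over all lines. SLC44A1 shifted by 0.11 in TCC1509 and by 0.002 in Metadcarc1511.3. MVD was between 47.7 and 128 CPM in the earliest and between 96.5 and 235 CPM in the later libraries. In the 4 lines other than those from metastases, 2 members rose and 2 fell. Without the earliest library of Adcarc1511.1, 8 rose and 4 fell, without its replicate 3, 7 rose and 5 fell, without the earliest library of Adcarc1508, 4 rose and 2 fell, and without that of Metadcarc1511.2, 3 rose and 2 fell. Of 11 genes of glucose transport, glycolysis and hypoxia, PGP rose and ERO1A fell (9.09% each). Of 8 genes of drug resistance and oxidative stress, only NFE2L1, a transcription factor of proteasome genes, was called (12.5%), with a log2 fold change of -0.51. Of 5 tested prostate cancer markers, AURKA was called (20%).

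Within single lines, the spread of the lone earliest library could not be measured and was assumed to be that of the later libraries. Under this assumption, the number of genes past the threshold was highest in both metastasis lines. Metadcarc1511.2 had 834 genes (7.70% of those tested), Metadcarc1511.3 had 642 (5.93%), Adcarc1508 had 223 (2.06%) and TCC1506 had 45 (0.416%), whereas TCC1509 and Adcarc1511.1 had 0, with 717 and 1677 at an unadjusted p under 0.05. DESeq2 gave 50 and 171 genes in these last lines. The shift differed among the lines for 200 genes (1.85%), of which 129 were also called over all lines. A difference of the shift between TCC and PAC lines passed for 0 genes by edgeR (779 at an unadjusted p under 0.05) and for 63 by DESeq2. Of the genes called over all lines, between 87.5% (TCC1506) and 99.1% (Metadcarc1511.2) had the same direction within a given line, a share that includes the line itself.

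The comparison of each later library group with the earliest one, which use the same earliest libraries, gave the following values side by side. Replicate 2 against replicate 1 had 2168 called genes (20%) and replicate 3 against replicate 1 had 622 (5.74%). For OLR1 the log2 fold change was -4.93 at replicate 2 and -6.27 at replicate 3, for IL20RB -4.05 and -5.11, and for LOXL4 -2.12 and -2.30. For TUBA4A it was 1.36 and 1.57, for CCNA2 1.57 and 1.64, and for CC2D2A -0.87 and -1.20. Among these 6 genes, the difference between replicates 3 and 2 passed for none (edgeR).

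Gene length moved with the shifts. The Spearman correlation across the 10828 tested genes between log2 fold change and transcript length was -0.15, and genes share libraries and are not independent. In the shortest of 5 length classes 341 were higher and 154 lower, and in the longest class 188 were higher and 399 lower. Within lines, this correlation ranged from -0.20 in TCC1506 and Adcarc1511.1 to -0.02 in Metadcarc1511.2. With offsets that removed the trend of each library with length, 2762 genes were called, of which 2489 were those called before. The counts were then 10 higher and 3 lower for cell cycle and mitosis, 13 and 2 for the centrosome, 0 and 5 for the cilium and 8 and 1 for mitochondrial genes.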

How the data were processed

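According to the study's methods, 75 bp single reads were trimmed by the authors (Trimmomatic 0.36) and aligned with STAR 2.5.3 to the genome build CanFam3.1, and Ensembl v94 genes were quantified by RSEM 1.3.0. The authors deposited 1 table of expected counts and TPM per lane, without further normalization. Here, expected counts (18.0% of values above 0 not whole) were summed over 4 lanes and rounded. The deposited TPM were read but are not reported. Depth limits genes under about 10 counts.

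Genes with at least 10 counts in all earliest or all later libraries were tested with edgeR 4.0.16 (TMM, quasi-likelihood F test, Benjamini-Hochberg) in R 4.3.3, with line as covariate, and CPM use TMM factors. DESeq2 1.42.0 was an alternative. Standard errors derive from the log2 fold change and F. The fit was tested on simulated data. Strand use was not given in the sources used here. Groups came from the labels.

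Symbols were paired for 1120 of 32183 identifiers, from the paper's tables and legends; no sequences are shown. Named genes are the 12 largest increases and decreases with a symbol among 152 called in the same direction in all 6 lines, 2 unnamed identifiers per direction, and named members of the lists; some members are counted in their list but not reported here by name. Members and lists were chosen with earlier results of these data known. Alternatives were the tool, normalization, filter, threshold, covariate, passage as a number, and libraries or lines left out. Sequencing series are not labelled and were inferred from sample numbers (TCC1506 replicates 1 and 2 in one, all other libraries in the other).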

Additional observations from a re-analysis of the deposited data

Results flagged for a closer look

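The shift between earliest and later libraries differed among the 6 lines for 200 genes (edgeR, adjusted p of at most 0.05). Among the genes examined by name, these were PLK4 (adjusted p 0.00293), CCNA2 (0.00451), NEK2 (0.00451), SASS6 (0.00938), HAUS5 (0.014), LOX (0.0151), PLEKHA4 (0.025), VEGFA (0.0299), TUBB (0.038) and TUBB4B (0.0393). PLEKHA4 met the count minimum in the earliest libraries only, so its adjusted p is not read as a test. For all genes of this set, the spread in the test comes from the later libraries only, and the lone earliest library is assumed to vary alike. The 5 mitotic and centrosomal genes of this set had log2 shifts between 2.11 and 3.68 in the metastasis lines and between -0.49 and -0.09 in TCC1506. LOX, the lysyl oxidase that cross-links collagen, went from 16.6 to 126 and 114 CPM in TCC1506 and from 340 to 215 and 248 CPM in Adcarc1511.1.

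Single lines stood apart from the other 5 in 2 of the 114 genes examined, and chance flags about 1 in 20 such groups. Both genes met the count minimum in only 1 passage group, PLEKHA4 in the earliest and HHEX in the later libraries. A line with few counts in the other group can thus stand apart, and these flags are given as a description. PLEKHA4 had a log2 shift of -5.27 in Adcarc1508 (14.8 CPM, then 0.269 and 0.472 CPM), against -1.23 to -0.49 in the other lines. The fitted log2 shift of HHEX was 5.37 in TCC1506, against 0.31 to 0.94 elsewhere. In that line it had 0 counts in the earliest library and 19 and 21 counts in the later ones, which is at least 6.83-fold higher against a floor of 3 counts in the earliest library (counting error only).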

How the results depend on the processing

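No paired analysis was possible because replicate 1 is the earliest group itself, as far as replicate numbers go. Replicate numbers gave no further pairing, because replicate 1 is the earliest group itself. The 2761 genes kept their number within 1.5 times under DESeq2 (3279), other size factors (2758), other count filters (3022 and 3149), passage as a number (2734) and length offsets added after seeing the data. The number changed more with an adjusted p of at most 0.01 and 2-fold change (291), without line as covariate (147), with replicate 3 only (623), without both metastasis lines (962), without line Adcarc1508 (1589) and without line Metadcarc1511.2 (1496). Leaving out 1 library gave 1729 (without Metadcarc1511.2 replicate 1) to 3416 genes (without Adcarc1511.1 replicate 3). Without TCC1506, whose libraries, inferred from sample numbers, may span a pair of sequencing series, 2607 genes were called. Of the 962 genes, 852 were among the 2761 and had the same direction. The cause of these changes was not tested.

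DESeq2 gave 120 genes for replicate 3 against replicate 2, 235 for TCC1506, 651 for Adcarc1508, 50 for TCC1509, 171 for Adcarc1511.1, 1304 for Metadcarc1511.2, 1014 for Metadcarc1511.3, 697 for the difference among lines and 63 for that between TCC and PAC lines. For TCC1509, other size factors gave 1 gene and the filter of 3 libraries 2. The distance without both metastasis lines was 12.98 (exact permutation p 0.111). None of the 114 named genes changed sign under any alternative run. As 110 of them were named from among called genes, a change of sign was unlikely from the start. Of these 110, some of which met the count minimum in only 1 passage group, 65 lost the call without both metastasis lines. It was lost by 99 without line as covariate, 86 at the stricter threshold and 73 with replicate 3 only.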
